A study of Rattus norvegicus with 125 samples.

Results

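The outer medullary collecting duct (OMCD) of the rat kidney was described from 7 RNA sequencing libraries of microdissected tubules, chosen by their label, beside 98 libraries of 13 other tubule segments in a series of 125 samples. All came from adult male Sprague-Dawley rats of 200 to 250 g on normal chow, with no genetic change or drug. The left kidney was perfused with collagenase and the tissue was then digested, pieces of cortex for 25 minutes, those of outer medulla for 50 and those of inner medulla for 90. Each library was made from the lysate of dissected tubules by a protocol developed for single cells, and gene levels are in RPKM, a read number scaled by transcript length and by the size of the library. The comparison groups were the other 13 segments together (98 libraries: proximal S1, S2 and S3, the descending limbs SDL, LDLOM and LDLIM, the thin ascending limb tAL, the medullary and cortical thick ascending limbs mTAL and cTAL, the distal convoluted tubule DCT, the connecting tubule CNT, and the other collecting ducts), and separately the neighbours on either side, the cortical collecting duct (CCD, 11 libraries) and the inner medullary collecting duct (IMCD, 8 libraries). The labels do not say whether libraries of a segment came from different rats, so p-values measure the spread between libraries. That spread was estimated once per gene over all 14 segments, so SE and p-values do not describe the spread of the OMCD libraries alone.

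The collecting duct is a mosaic. Principal cells take up water through aquaporins under the control of vasopressin and take up sodium through the epithelial sodium channel. Intercalated cells move acid and base: type A cells secrete protons with a vacuolar proton pump at the lumen and return bicarbonate through the anion exchanger Slc4a1, whereas type B cells secrete bicarbonate through pendrin, the product of Slc26a4. The outer medullary part is known as a site of strong acid secretion, lying between a cortical part that holds both intercalated types and an inner part specialised for urea and water.

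The label was checked against the genes that mark this duct. Aqp2, the vasopressin-regulated water channel, was at 4608, 15530, 20940, 1695, 4316, 1128 and 5421 RPKM in OMCD libraries 1 to 7. P2ry14, a receptor for UDP-sugars, was at 179, 77.7, 135, 253, 168, 102 and 311 RPKM. Slc26a7, an anion exchanger of type A cells, was at 3.35, 0.505, 30.7, 62.4, 4.55, 5.55 and 5.94 RPKM. Aqp2 and P2ry14 were therefore strong in all 7 libraries, while Slc26a7 was low in most, was below 1 RPKM in library 2 and was high only in libraries 3 and 4. These 3 markers were named with results of these data in view, so their level here is a description.

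Libraries differed in how many genes they detected and in what other tubule RNA they held. OMCD libraries had 2517 to 7202 genes at 1 RPKM or more (median 3212), against 4210 to 8414 (median 6749) in CCD and 3042 to 8432 (median 6321.5) in IMCD; the files hold no read counts, so depth itself is unknown. The median gene was 0.29 lower (log2) in OMCD than in the other 13 segments, 0.59 lower than in CCD and 0.55 lower than in IMCD, and changes are best read relative to those shifts. OMCD library 5 had the most genes, and across genes its log2 values correlated better with CCD library 6 (r = 0.925) than with any other OMCD library (best r = 0.765). Library 3 also correlated better with a library of another segment (IMCD library 7, r = 0.697) than with any OMCD library (best r = 0.669). The OMCD libraries did not group apart from CCD by this measure: the median r was 0.627 between OMCD libraries and 0.632 between OMCD and CCD libraries. The proximal tubule markers summed to 883 RPKM in OMCD library 7 and to 0.812 to 60.1 in the other 6, and in library 7 Slc34a1, the proximal phosphate transporter, was at 286 RPKM. Umod, the uromodulin gene of the thick ascending limb, was at 247 RPKM in library 4, 223 in library 7 and 0.456 to 39.8 in the rest. Of the other markers of that limb, the claudin gene Cldn19 was also highest in libraries 4 and 7 (138 and 155 RPKM, against 26.9 to 110 in the rest), Cldn16 reached 8.14 RPKM in library 7, and Slc12a1, the sodium-potassium-chloride cotransporter gene of that limb, was at most 0.635 RPKM in every OMCD library. Cldn19 was itself higher in OMCD than in the other 13 segments, by 2.78 ± 0.82 (log2 change ± SE). It was also 4.96 ± 1.08 higher than in IMCD, with no overlap, so it did not mark the thick ascending limb alone here. The 6 markers together summed to 27.4 to 386 RPKM in OMCD, 18.8 to 142 in CCD and 942 to 18860 in mTAL and cTAL. The inner medullary genes Slc14a2 and Gpha2 were at most 0.498 and 3.42 RPKM in the 7 libraries.

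**Figure D1:**
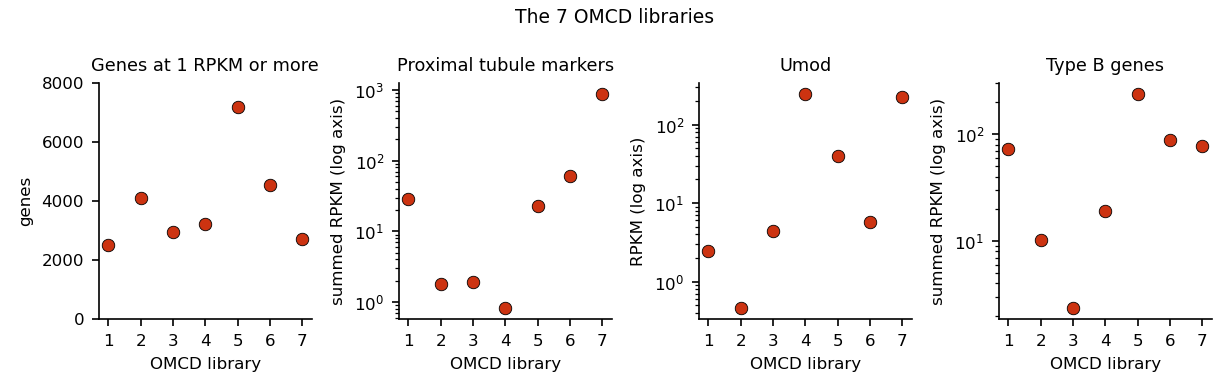
The 7 OMCD libraries by number (x axis), with the genes at 1 RPKM or more, the summed RPKM of 12 proximal tubule markers, the RPKM of Umod and the summed RPKM of 5 type B intercalated cell genes (the last 3 on log axes); each point is 1 library. Library 5 has the most genes (7202) and the highest type B sum (239), and library 7 the highest proximal sum (883).

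Against the other 13 segments, genes of principal cells and of type A intercalated cells led the OMCD profile. Of 11078 genes tested, 164 (1.48%) were called higher and 49 (0.442%) lower in OMCD, a call being an adjusted p under 0.05 with a change of at least 1 on the log2(RPKM + 1) scale. The 10 largest increases were Fxyd4, Atp6v1g3, Aqp2, Aqp6, Grem1, P2ry14, Rhbg, Lpl, Defb1 and Aqp3. In no gene did all 7 OMCD libraries lie above, or all below, the 98 others (0% in each direction).

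Among the water and vasopressin genes, 5 of 15 tested were called higher and none lower: Aqp2, Aqp3, Aqp4, the vasopressin receptor gene Avpr2 and the prostaglandin receptor gene Ptger1. Aqp2 had a mean of 7663 ± 7550 RPKM (SD, n = 7) in OMCD, close to 7683 ± 4183 in CCD (n = 11) and 8180 ± 5115 in IMCD (n = 8). The increase over the other 13 segments was 7.06 ± 0.83 (log2 change ± SE, adjusted p = 4.9e-11), but the 3 collecting duct segments overlapped fully and the OMCD libraries spanned 1128 to 20940 RPKM. Avpr2, whose product raises cyclic AMP in principal cells, was at 453, 743, 472, 431, 698, 524 and 90.3 RPKM in libraries 1 to 7, with library 7 the only low one. Its mean of 487.5 ± 213.5 RPKM (n = 7) was 5.37 ± 0.66 higher than in the other segments (adjusted p = 2.4e-10).

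Fxyd4, a small regulator of the sodium pump, was the largest increase of all, at 7.57 ± 0.73 (adjusted p = 5.5e-15). It was at 2156, 3644, 3428, 994, 1604, 1485 and 541 RPKM in the 7 libraries, and the median was 396 RPKM in CCD and 1183 in IMCD. Of 18 tested genes of sodium and potassium transport, 6 were called higher (Fxyd4, Scnn1b, Scnn1g, Hsd11b2, Sgk1 and Kcnj1) and 1 lower (Tsc22d3). Scnn1b and Scnn1g encode subunits of the epithelial sodium channel, and Hsd11b2 the enzyme that inactivates glucocorticoid and so leaves the mineralocorticoid receptor to aldosterone. Scnn1b was at 0.0436, 33.6, 120, 371, 480, 111 and 1.62 RPKM and Scnn1g at 0, 15.8, 61.1, 46.7, 112, 226 and 96.7. OMCD library 1 thus had almost no RNA listed for either subunit while holding Aqp2 at 4608 RPKM, and library 7 held Scnn1g without much Scnn1b. Library 1 detected the fewest genes of the 7 (2517), and the part of detection in its low values was not tested.

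Of 15 type A genes tested, 11 were called higher against the other 13 segments and none lower, beside 1.48% higher and 0.442% lower over all genes. The median log2 change of the 15 was 3.91, against -0.29 over all genes. The 11 included Slc4a1, Slc26a7, Aqp6, Rhbg, Rhcg, Car2, Dmrt2, Gpr116, Foxi1 and P2ry14. Of these, Slc26a7 and P2ry14 were named with results of these data in view, so their part in the count is a description. Rhbg and Rhcg encode ammonia transporters, Car2 the cytosolic carbonic anhydrase, and Foxi1 the forkhead factor required for intercalated cells. Rhbg was at 2159, 607, 265, 51.1, 1409, 418 and 104 RPKM, its change being 6.27 ± 0.63 (adjusted p = 3.4e-14). Slc4a1 was at 478, 219, 132, 42.6, 500, 72.5 and 182 RPKM (5.98 ± 0.63, adjusted p = 3.4e-13). Both were highest in libraries 1 and 5 and lowest in library 4. Atp12a, the gene of the non-gastric proton-potassium pump catalytic subunit, was listed at 0 RPKM in all 7 OMCD libraries. Of 5 type B genes tested against the other 13 segments, 1 was called higher (Slc4a9, 2.08 ± 0.47) and none lower.

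All 5 intercalated forms of proton pump subunits were called higher, with a median change of 3.82, against 3 of 16 common subunits. Atp6v1g3 was the steadiest, at 1097, 1062, 1012, 886, 616, 676 and 615 RPKM (7.42 ± 0.62, adjusted p = 1.7e-18). Atp6v0d2, by contrast, was at 461, 51.6, 13.2, 0.00604, 643, 46.1 and 409 RPKM (3.66 ± 0.75, adjusted p = 0.00052). Atp6v0a4, at 6.36 to 681 RPKM with a change of 3.05 ± 0.73 (adjusted p = 0.0063), lost its call without library 1 (2.53, adjusted p = 0.075) or without library 5 (2.65, adjusted p = 0.055).

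Promoters of 4 genes are shown, because P2ry14 was the gene highest over every other segment, Atp6v1b1 stands for the pump, and Aqp2 and Aqp6, a principal cell gene and a type A gene, start 20.8 kb apart on 1 chromosome. Each is the 250 bases before the annotated start (RefSeq, GRCr8), 5′ to 3′ on the strand of the gene: P2ry14 at chr2:145538511-145538760 (minus strand), Atp6v1b1 at chr4:117781194-117781443 (plus), Aqp2 at chr7:132590036-132590285 (plus) and Aqp6 at chr7:132610819-132611068 (plus). Capitals mark 2 motifs searched on both strands, which share no letters in overlap here: the forkhead motif TGTTTAC and the half-site of the cyclic AMP response element, TGACG, whose reverse complement is CGTCA.
P2ry14: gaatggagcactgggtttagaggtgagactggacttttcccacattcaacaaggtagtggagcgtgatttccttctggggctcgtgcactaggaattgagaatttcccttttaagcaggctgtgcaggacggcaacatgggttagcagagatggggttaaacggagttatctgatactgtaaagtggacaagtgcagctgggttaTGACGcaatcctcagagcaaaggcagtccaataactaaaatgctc
Atp6v1b1: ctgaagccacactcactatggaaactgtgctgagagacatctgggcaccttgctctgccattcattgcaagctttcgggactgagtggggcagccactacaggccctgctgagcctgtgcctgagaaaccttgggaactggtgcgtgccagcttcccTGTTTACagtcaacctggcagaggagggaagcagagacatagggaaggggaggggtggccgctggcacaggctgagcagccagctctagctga
Aqp2: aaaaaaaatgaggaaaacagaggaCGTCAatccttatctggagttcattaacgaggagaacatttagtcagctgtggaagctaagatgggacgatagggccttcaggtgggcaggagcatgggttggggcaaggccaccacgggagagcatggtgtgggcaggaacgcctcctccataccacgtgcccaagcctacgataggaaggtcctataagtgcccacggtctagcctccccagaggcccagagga
Aqp6: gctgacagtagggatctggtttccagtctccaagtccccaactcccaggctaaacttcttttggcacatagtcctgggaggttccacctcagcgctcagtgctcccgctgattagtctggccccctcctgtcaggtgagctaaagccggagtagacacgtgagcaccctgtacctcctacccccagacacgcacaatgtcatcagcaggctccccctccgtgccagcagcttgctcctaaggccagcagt
The half-site lies 45 bases before the start of P2ry14 and 226 bases before that of Aqp2, and the forkhead motif 93 bases before that of Atp6v1b1. Of 33469 promoters of this length, 3.21% hold the forkhead motif and 18.22% the half-site. Among the 164 genes called higher against the other 13 segments, 122 had a promoter entry, of which 2 held the forkhead motif (1.64%, Atp6v1b1 and Avpr2) and 34 the half-site (27.87%). These shares come from unlike sets: all promoter entries with no filter on expression, and 1 promoter per called gene. Enrichment was not tested. A match is a description of letters in this window and not a binding site.

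Grem1, Lpl and Defb1, which mark no cell class here, were among the largest increases over the other 13 segments, and none of the 3 was called against CCD (adjusted p of 0.21, 0.2 and 0.6). Grem1, a secreted antagonist of bone morphogenetic proteins, was at 505, 341, 269, 156, 690, 414 and 622 RPKM (6.82 ± 0.48, adjusted p = 5.1e-23). Lpl, lipoprotein lipase, was at 549, 87.4, 84.4, 454, 165, 482 and 150 RPKM (6.23 ± 0.55, adjusted p = 3.4e-17). Defb1, a beta-defensin with antimicrobial activity, was at 488, 1207, 997, 861, 629, 1670 and 877 RPKM (6.12 ± 0.70, adjusted p = 1.2e-11). Lpl was higher in libraries 1, 4 and 6 than in the other 4, and the OMCD libraries overlapped with those of CCD for all 3 genes. The mean RPKM of Defb1 was highest in CNT, and its mean log2 value in OMCD was 0.23 above that of CNT.

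The 10 genes furthest below the other 13 segments were Spp1, Aqp1, Clu, Mt2A, Clic4, Cd74, Aadat, Hao2, Vim and Plau. Aqp1, the water channel of the proximal tubule and descending limb, was at 0.0443 to 0.866 RPKM in OMCD (-4.66 ± 0.79, adjusted p = 8e-06). Spp1, the osteopontin gene, was below 1.1 RPKM in 5 libraries and at 16.8 in library 5 and 151 in library 7 (-6.15 ± 1.04, adjusted p = 8e-06). Mt2A, a metallothionein, was at 6.66, 4.77, 1.35, 32.8, 11, 42.6 and 306 RPKM (-3.70 ± 0.51, adjusted p = 2.2e-08), again highest in library 7. Cd74 lost its call without libraries 4 and 7 (adjusted p = 0.061), and without library 2 or 3. The count of lower genes rests on few libraries: it was 14 without libraries 4 and 7, and 18 to 27 when library 1, 2, 3, 4, 6 or 7 alone was left out, while the count of higher genes was 162 without libraries 4 and 7. With all 98 other libraries as a single group, 69 genes were called higher and 2 lower.

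The most abundant transcripts of OMCD included Myl6l (mean 18110 RPKM) and Mrpl1 (12530), ahead of Aqp2. Neither was called in any comparison, and their levels differed between the sets of transcript models. In the second table the authors deposited, made without polyadenylation-site sequencing (PA-seq), their OMCD means were 106 and 0.726 RPKM. Aqp2 had the same mean in both tables.

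**Figure D2:**
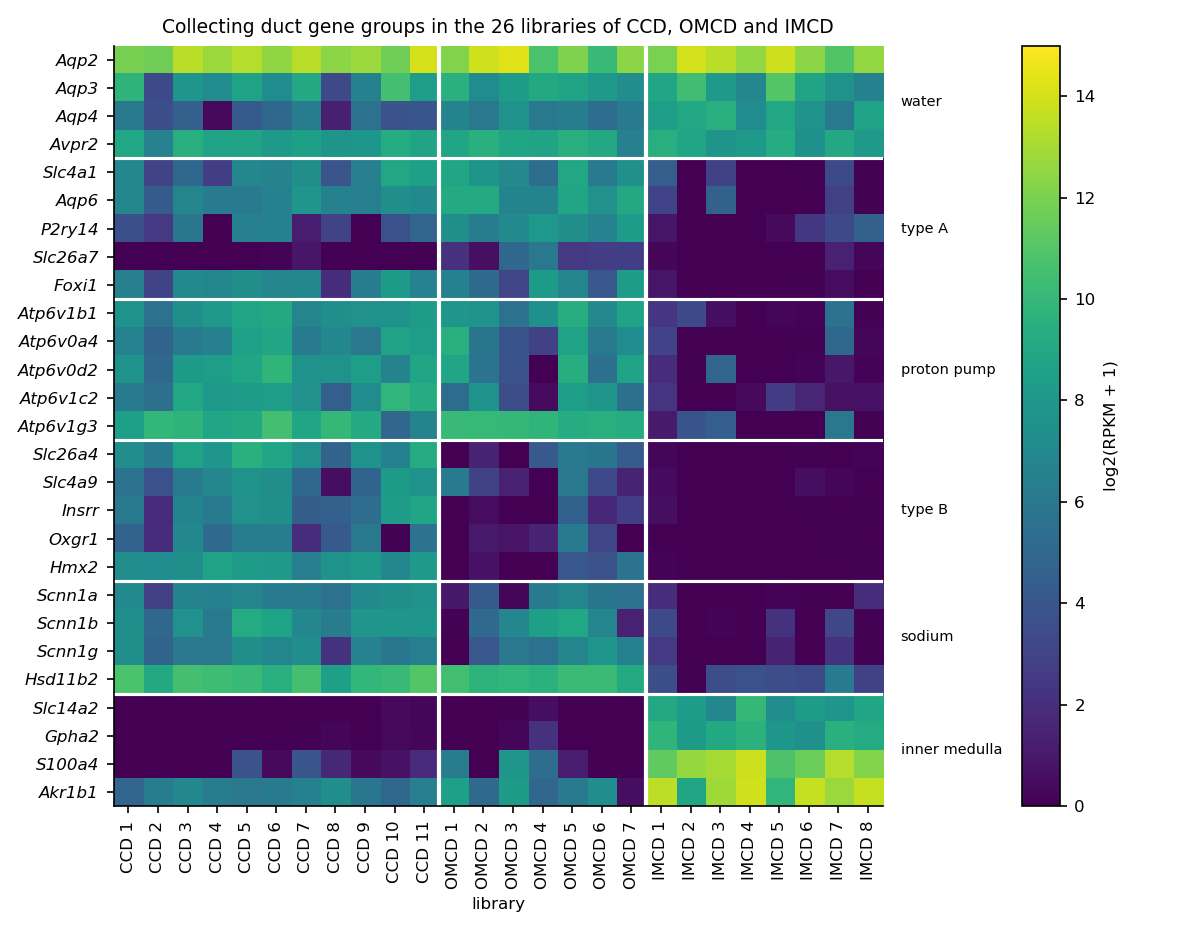
Level on the log2(RPKM + 1) scale (colour) of 27 genes in 6 groups (rows) in each library of CCD, OMCD and IMCD (columns, with replicate numbers). Except for Slc26a7, which is near 0 in CCD, the type A and pump genes are higher in most CCD and OMCD libraries than in IMCD, the type B genes are strongest in CCD, and Slc14a2 and Gpha2 are high in IMCD.

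Against CCD, the profile differed by fewer type B transcripts and by a short list of higher genes. Of 11078 genes, 9 (0.0812%) were called higher in OMCD and 135 (1.22%) lower. In 2 genes (0.0181%) every OMCD library lay above every CCD library and in 12 (0.108%) every one lay below. The lower count depended on scaling and on single libraries: 26 higher and 21 lower genes were called after quantile normalization, 15 higher and 42 lower with the number of detected genes as a covariate, and 11 higher and 43 lower without libraries 4 and 7. Leaving out 1 library gave 373 lower genes without library 5, 62 without library 1, 60 without library 3 and 74 without library 4, and 14 higher genes without library 5 or 7.

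All 5 tested type B genes were called lower than in CCD (median change -4.54, against -0.59 over all genes). Slc26a4, the pendrin gene, was at 0, 1.69, 0.00695, 17.5, 65.7, 56.6 and 19 RPKM in OMCD and at 26.8 to 743 (median 203) in CCD, a change of -4.54 ± 0.64 (adjusted p = 1.5e-07). Hmx2, a homeobox factor gene, was at 0, 0.645, 0.00228, 0.0165, 15.7, 12.2 and 50.7 RPKM against 83.7 to 392 in CCD, with no overlap (-5.65 ± 0.54, adjusted p = 3.2e-14). Insrr, which encodes a receptor that senses alkaline pH, was at 0 to 24.1 RPKM against 2.57 to 475 (-4.76 ± 0.58, adjusted p = 8.5e-10). OMCD library 5 held the most type B RNA and libraries 2, 3 and 4 the least. In library 4 most of it was Slc26a4, at 17.5 RPKM, and in library 1 all of it was Slc4a9, at 71.9 RPKM. Slc4a9, a bicarbonate exchanger gene, changed by -2.78 ± 0.58 (adjusted p = 0.0019), and Oxgr1, the gene of the oxoglutarate receptor, by -2.70 ± 0.62 (adjusted p = 0.0067).

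Summed over the 5 genes, type B RNA was 71.9, 10.2, 2.34, 19.1, 239, 87.8 and 77.4 RPKM in OMCD libraries 1 to 7, against 242.5 to 1609 (median 822) in CCD and 0 to 1.10 in IMCD. The highest OMCD value, in library 5, lay just under the lowest of CCD, and all 7 lay above all 8 of IMCD. Direction held under quantile normalization, where 4 of 5 were called lower, and under the covariate, where 5 of 5 were. Without libraries 4 and 7, 3 of 5 were called, Slc4a9 and Oxgr1 being lost. Slc4a9 and Oxgr1 also lost their calls with OMCD and CCD fitted alone (limma, adjusted p of 0.12 and 0.13). In the table without PA-seq, Oxgr1 lost its call too (0.072). In whole tubules, fewer cells of a type and less RNA per cell cannot be told apart.

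Other genes called lower than in CCD included Tmem52b, Igfbp5, Gabrp, Kcne1, Calb1, Casr and Gata2. Most had their highest mean log2 value outside the collecting duct: Tmem52b and Igfbp5 in DCT, Kcne1 and Calb1 in CNT, and Casr in cTAL. Gabrp was highest in CCD and Gata2 in IMCD. Cldn16, a marker of the thick ascending limb, was also called lower than in CCD (-2.79 ± 0.74). Casr, the calcium-sensing receptor gene, was at 0 to 0.574 RPKM in OMCD against 1.96 to 32.6 in CCD, with no overlap (-3.35 ± 0.64, adjusted p = 0.00041). Calb1, the calbindin gene that marks the connecting tubule, was at 0.166 to 69.4 RPKM in OMCD against 0.00603 to 1841 in CCD (-4.25 ± 0.98, adjusted p = 0.0074). Gabrp, a subunit gene of a GABA receptor, was listed at 0 in 4 OMCD libraries and reached 15.5 RPKM in library 6, against 5.09 to 251 in CCD (-4.38 ± 0.60, adjusted p = 6.8e-08). The summed connecting and distal tubule markers were 0.457 to 73 RPKM in OMCD and 4.00 to 3251 in CCD, with medians of 3.66 and 195, and their part in these genes was not tested. Without libraries 4 and 7 the calls of Calb1 (-3.92, adjusted p = 0.076) and Gata2 (-2.36, 0.17) were lost, and Calb1 also lost its call with a pseudocount of 0.1 (0.052) and with OMCD and CCD fitted alone (0.076). Casr and Gata2 lost their calls under quantile normalization (adjusted p of 0.44 and 0.056). Igfbp5, at 0.0601 to 28.2 RPKM in OMCD against 49.2 to 228 in CCD (-4.96 ± 1.05, adjusted p = 0.0024), had means of only 0.0049 and 2.04 RPKM in the table without PA-seq and no call there.

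The 9 genes higher than in CCD were Id3, P2ry14, Dnase1, Slc12a2, Slc26a7, Fgf9, Akr1c13, Aqp4 and Rbm48. P2ry14 was higher by 3.86 ± 0.66 (adjusted p = 4.2e-05), with 6 of 7 OMCD libraries above the highest CCD library (94.6 RPKM). Dnase1, a secreted endonuclease gene, was at 611, 166, 716, 322, 978, 157 and 208 RPKM against 5.19 to 93.0 in CCD, the one called gene with no overlap (3.59 ± 0.87, adjusted p = 0.013). It was also abundant in DCT (mean 1517 RPKM) and mTAL (556), and the part of RNA from those segments was not tested. Its change was 3.78 without libraries 4 and 7 (adjusted p = 0.040).

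Slc12a2 encodes the basolateral sodium-potassium-chloride cotransporter. It was at 69.7, 18.8, 55.6, 3.30, 4.90, 41.9 and 140 RPKM in OMCD and at 0.0124 to 9.78 in CCD, with 5 of 7 libraries above all of CCD (3.50 ± 0.74, adjusted p = 0.0025). Libraries 4 and 5 were within the range of CCD. Slc26a7 was at 0 to 0.904 RPKM in CCD, and 6 of 7 OMCD libraries exceeded that (2.99 ± 0.44, adjusted p = 4.6e-07). In the table without PA-seq, its OMCD mean was 4.91 RPKM in place of 16.1 and its change 1.61, still called.

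Aqp4, the basolateral water channel of principal cells, was at 106, 63.3, 196, 65.9, 79.6, 40 and 76 RPKM, between CCD (0.268 to 78.0, median 18.3) and IMCD (66.8 to 697, median 379). It was called higher than in CCD (2.26 ± 0.58, adjusted p = 0.026) and lower than in IMCD (-1.87 ± 0.63, adjusted p = 0.046), a rising order along the duct in which neighbouring segments overlapped. Both calls were close to the threshold: the first was lost without library 1 or 3 and without libraries 4 and 7 together, and the second without library 1, 2, 4, 5, 6 or 7 and without libraries 4 and 7 together.

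Id3, an inhibitor of basic helix-loop-helix factors, was at 40.7, 483, 61, 806, 112, 13.6 and 116 RPKM against a CCD median of 2.58 (4.21 ± 1.09, adjusted p = 0.026). Its highest mean was in SDL (1339 RPKM). The 4 thin limb markers summed to 0.0443 to 2.81 RPKM in OMCD and 0.0258 to 7.65 in CCD, and the part of thin limb RNA in Id3 was not tested. The call was lost without library 2 or 4 (adjusted p of 0.072 and 0.094) and without libraries 4 and 7 together (0.19). The remaining 3 genes rested on few libraries. Fgf9 was at 404 RPKM in library 1 and 1.05 to 30.2 elsewhere, Akr1c13 at 1221 in library 1, and Rbm48 was listed at 0 in libraries 1, 3 and 4. Without libraries 4 and 7, Fgf9 and Rbm48 lost their calls (adjusted p of 0.12 and 0.066). With OMCD and CCD fitted alone in limma, Fgf9, Akr1c13 and Rbm48 lost theirs (adjusted p of 0.0997, 0.13 and 0.16), as did Aqp4 (0.13). Akr1c13 belongs to a family of near-identical genes whose reads can be split in counting, so its value is uncertain.

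Against CCD, 2 of 15 type A genes were called higher (Slc26a7 and P2ry14), none lower and 13 not. None of the 5 intercalated pump subunits was called in either direction, their median change being -0.79, against -0.59 over all genes. Aqp6, which encodes an intracellular aquaporin of type A cells, was at 585.1, 574.2, 106.5, 105.1, 460.8, 191.6 and 532.3 RPKM against 18.3 to 226 in CCD. The difference of 1.60 ± 0.60 did not pass (adjusted p = 0.14), and in the table without PA-seq it was -0.12, with means of only 8.09 RPKM in OMCD and 11.0 in CCD. In that table Aqp6 also lost its calls against the other 13 segments and against IMCD, so its level differed between the sets of transcript models. The pump subunits summed to 1073 to 2649 RPKM in OMCD and 929 to 3675 in CCD, overlapping throughout.

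**Figure D3:**
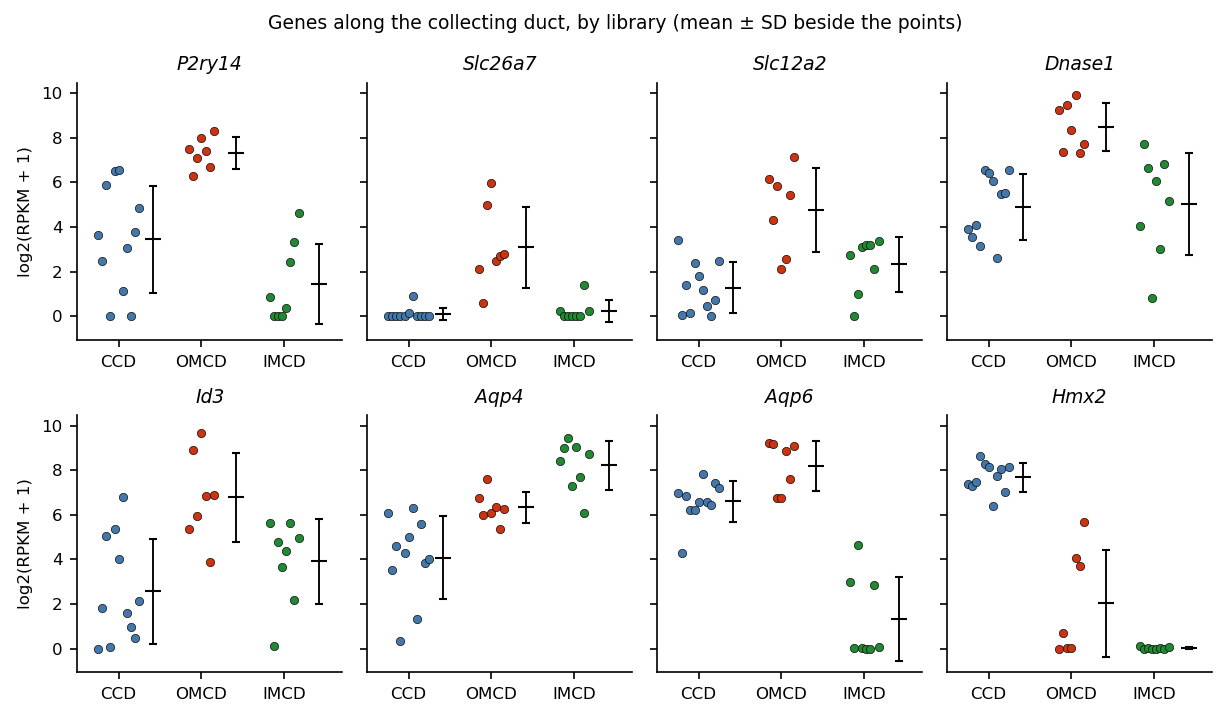
Level on the log2(RPKM + 1) scale of 8 genes in each library of CCD (11), OMCD (7) and IMCD (8); points are libraries, and the bar beside them gives mean ± SD. P2ry14 and Slc26a7 peak in OMCD, Aqp4 is highest in IMCD, and Hmx2 is highest of the 3 ducts in CCD, with OMCD libraries 5, 6 and 7 in between.

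Against IMCD, most type A genes, all 5 intercalated pump subunits and 3 of 5 type B genes were called higher. Part of the osmolyte and early response genes were called lower. Of 19 acid-base and ammonia transport genes, which include type A genes, 8 were called higher, 1 (Slc4a7) lower and 10 not. Of 11078 genes, 110 (0.993%) were called higher in OMCD and 718 (6.48%) lower. In 34 genes (0.307%) all OMCD libraries were above all IMCD libraries and in 57 (0.515%) all were below. The balance moved with scaling, to 233 higher and 333 lower after quantile normalization and 191 higher and 373 lower with detected genes as a covariate, and 101 were higher and 428 lower without libraries 4 and 7.

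Of 15 tested type A genes 11 were called higher than in IMCD, as were all 5 intercalated pump subunits. The 11 again included Slc26a7 and P2ry14, which were named with results of these data in view. Of 5 tested type B genes, 3 were called higher as well and none lower: Slc26a4 (3.06 ± 0.68), Slc4a9 (2.87 ± 0.62) and Hmx2 (2.00 ± 0.58). Car15, a membrane-bound carbonic anhydrase gene, was at 222, 159, 445, 254, 1424, 798 and 652 RPKM in OMCD against 0 to 28.5 in IMCD (7.98 ± 1.05, adjusted p = 2.3e-09), the largest increase. Atp6v1g3 was at 0 to 60.6 RPKM in IMCD (change 7.76 ± 0.81, adjusted p = 2.2e-13) and Foxi1 at 0 to 0.825 (5.86 ± 0.67, adjusted p = 1.1e-11). Foxi1 ranged from 7.92 RPKM in OMCD library 3 to 302 in library 7, above all of IMCD in each. Csrp2 and Mcoln3 were also among the 10 largest increases, at 11.4 to 402 RPKM and 0.348 to 323 RPKM in OMCD. Rab20, a small GTPase gene, was at 160, 246, 19.7, 114, 248, 164 and 267 RPKM in OMCD and at most 7.02 in IMCD.

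Hsd11b2 was at 1411, 815, 952, 768, 1208, 1186 and 567 RPKM in OMCD, within the range of CCD (359 to 2054), and at 0.0702 to 69.2 in IMCD (6.50 ± 0.75, adjusted p = 1.1e-11). Scnn1a, Scnn1b and Scnn1g were each called higher than in IMCD, by 3.77 ± 0.97, 4.27 ± 0.77 and 4.48 ± 0.62, and Scnn1a lost its call without libraries 4 and 7 (3.11, adjusted p = 0.074). The 3 sodium channel subunits summed to 0.988, 67.6, 182, 494, 709, 391 and 146 RPKM in OMCD against 0 to 16.4 in IMCD and 65.1 to 881 in CCD. OMCD library 1 was thus inside the range of IMCD for the channel and at 1411 RPKM, the highest, for Hsd11b2.

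The 3 inner duct markers Slc14a2, Gpha2 and S100a4 were all called lower than in IMCD, with no overlap, though S100a4 was present in some OMCD libraries. Slc14a2, the urea transporter gene, was listed at 0 in 5 OMCD libraries and reached 0.498 RPKM in library 4, against 130 to 1003 in IMCD (-8.22 ± 0.73, adjusted p = 6.8e-17). S100a4, a calcium-binding protein gene, was at 78.2, 0, 243, 40.8, 1.26, 0 and 0 RPKM against 1795 to 14530 (-9.37 ± 1.09, adjusted p = 1.7e-11), the largest decrease. Gpha2, Fgfbp1, Akr1b8 and Aldh1a3 were below 3.5 RPKM in every OMCD library and without overlap with IMCD. Library 4 was the highest OMCD library for all 4 and for Slc14a2.

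Of 8 tested osmolyte genes, 4 were called lower than in IMCD (Akr1b1, Slc5a3, Slc14a2 and Hspa4l) and none higher, and the same count of 4 came under quantile normalization and the covariate. Akr1b1, the aldose reductase that makes sorbitol, was at 351, 35.9, 289, 29.6, 71.9, 161 and 0.448 RPKM in OMCD against 469 to 15730 in IMCD (-6.55 ± 1.30, adjusted p = 0.00013). Slc5a3, the myo-inositol transporter gene, was at 0 to 3.37 RPKM against 0.176 to 237 (-4.23 ± 0.94, adjusted p = 0.0008). In CCD the medians were 76.3 and 0.0248 RPKM. None of the 8 was called against CCD (limma, adjusted over all genes).

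Of 16 early response and heat shock genes, 9 were called lower than in IMCD and none against CCD. Hspa1a, an inducible chaperone gene, was at 36.0, 0.068, 0.156, 70, 36.9, 16.9 and 0.356 RPKM in OMCD against 54.7 to 269 in IMCD (-4.04 ± 1.00, adjusted p = 0.0033). Fosb was at most 0.474 RPKM in OMCD against a median of 13.1 in IMCD (-3.22 ± 0.85, adjusted p = 0.0066). Such genes are known to respond to stress, and digestion lasted 50 minutes for OMCD and 90 minutes for IMCD, so segment and digestion time cannot be told apart. Mt2A, which was also far lower than in IMCD with no overlap (-5.21 ± 0.68, adjusted p = 1.5e-09), has the same limit.

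In all, 3 genes peaked in the outer medulla within the collecting duct. P2ry14, Slc26a7 and Akr1c13 (3 of 11078, 0.0271%) were called above both CCD and IMCD, with smaller margins of 3.86, 2.86 and 2.70 and adjusted p of 0.00025, 0.00014 and 0.011 for the larger of the paired p-values. Akr1c13 lost this call without library 1, where it was at 1221 RPKM (adjusted p = 0.37), or without library 5 (0.12). Slc26a7 and P2ry14 kept theirs when any single OMCD library was left out, and without libraries 4 and 7 (adjusted p = 0.01 for both), but with a pseudocount of 0.1 P2ry14 lost it (0.075). Slc12a2 was called higher than both CCD and IMCD in the separate tests, but the joint test gave an adjusted p of 0.55, the step against IMCD being close to the threshold (2.45 ± 0.80, adjusted p = 0.038), and its call against IMCD was lost without library 1, 3, 6 or 7 and without libraries 4 and 7 together (0.071).

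In turn, 4 genes dipped: Gabrp, Gata2, Phactr1 and Dcdc2 (0.0361%) were called below both neighbours. Gata2, a zinc finger factor gene, was at 0, 17.9, 0.0117, 0, 89.4, 30.2 and 0.278 RPKM in OMCD against medians of 56.2 in CCD and 58.0 in IMCD. Phactr1 was at 0.0192 to 4.44 RPKM against medians of 12.5 and 27.1, and Dcdc2 at 0 to 7.58 against 10.2 and 14.9. For all 4 genes, libraries 5 and 6, which detected the most genes, had the highest and next highest OMCD values, and the part of detection in these dips was not tested. The calls were fragile. After quantile normalization or with the covariate 1 gene was called below both, and without libraries 4 and 7 none of these 4 was.

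Only P2ry14 (0.00903%) was called above each of the other 13 segments. Its mean of 175 ± 82.7 RPKM (n = 7) compared with 28.1 ± 36.1 in CCD (n = 11), 24.9 in CNT, 5.31 in SDL and 4.79 ± 8.28 in IMCD (n = 8), and with at most 1.34 in the other 9 segments. The margin over the closest segment on the log scale, CNT, was 3.84 (adjusted p = 0.018 for the largest of 13 p-values). Of the 98 other libraries, 3 exceeded the lowest OMCD library, at up to 94.6 RPKM. The call held without any single OMCD library (adjusted p up to 0.044) but was lost without libraries 4 and 7 (0.10), without libraries under 2500 detected genes (0.48) and with a pseudocount of 0.1 (1). P2ry14 was the 1 gene called higher of 14 tested in nucleotide and adenosine signalling, where Adora1 and Entpd2 were called lower than in IMCD.

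**Figure D4:**
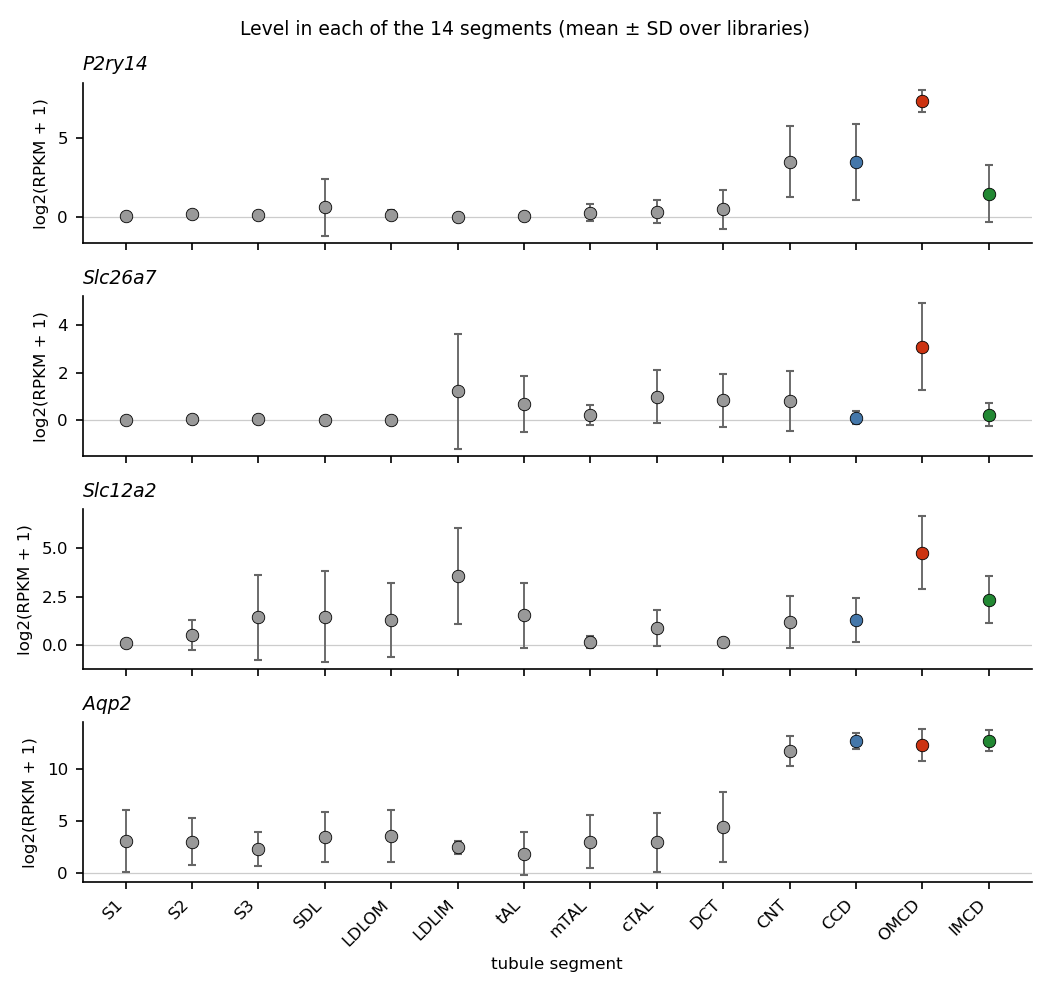
Mean ± SD over libraries of log2(RPKM + 1) for P2ry14, Slc26a7, Slc12a2 and Aqp2 in the 14 tubule segments, from proximal (left) to inner medullary (right). P2ry14, Slc26a7 and Slc12a2 are highest in OMCD, and Aqp2 is at a similar level in CCD, OMCD and IMCD.

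The 10 genes with the largest margins over each other segment, called or not, were P2ry14, Nt5dc2, Akr1c13, Slc26a7, Eef1e1, Map7, Calm2, Aqp6, Edn3 and Lpl. Nt5dc2 was at 237, 70.7, 605, 5.52, 79.4, 65.2 and 9.95 RPKM, a mean 2.79 above CCD, its nearest segment, with an adjusted p of 0.065 there. Edn3, the endothelin 3 gene, was at 336 RPKM in library 1 and 14.0 or less in the others. Slc12a2 and Slc26a7 had LDLIM as the nearest segment, where means over 4 libraries were 24.4 and 6.96 RPKM.

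Over the 14 segment means, the genes most like P2ry14 included Shisa2 (Pearson r = 0.981), Edn3 (0.976), Dmrt2 (0.97) and Aqp6 (0.956). Those most like Slc26a7 were Plce1 (0.876), Rab19 (0.838), Rbm48 (0.828), Rgma (0.811) and Rph3al (0.787). These correlations rest on the same libraries throughout and carry no test. Dmrt2, a factor gene of type A cells, was at 0, 7.48, 46.3, 40.9, 51.7, 33.2 and 85.2 RPKM in OMCD libraries. It was thus listed at 0 in library 1, where P2ry14 was at 179. Library 1 detected the fewest genes of the 7 (2517), and the part of detection in this listed 0 was not tested.

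The 7 libraries were not alike in their mix. The pump subunits summed to 2519, 1569, 1097, 1073, 2649, 1145 and 1642 RPKM and the 3 water channels (Aqp2, Aqp3 and Aqp4) to 5454, 15750, 21450, 2308, 4820, 1430 and 5662. Library 3 had the most water channel RNA with a low pump sum, library 5 the highest pump and sodium channel sums, and library 6 the least water channel RNA. Within type A genes, Slc26a7 was highest in libraries 3 and 4, the 2 with the lowest Aqp6.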

How the data were processed

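The values analysed were RPKM per transcript as deposited by the authors, from the table made with PA-seq; the RPKM table without PA-seq served as an alternative. Per the submitters' processing notes, the build was rn5 and the tools named were HOMER, SAMtools, STAR 2.3.0-r192 and Trimmomatic 0.32, with order and settings not given in the sources used here. For 503 of 17144 symbols with several transcripts, the one with the highest mean was kept. On the log2(RPKM + 1) scale, 11078 genes reaching 1 RPKM in 4 or more tubule libraries were tested in a single limma 3.58.1 fit (R 4.3.3, trended variance) with a mean per segment. OMCD was compared with the unweighted mean of the other 13 segments, with CCD and with IMCD, with Benjamini-Hochberg adjustment over all genes. Genes above or below several segments were tested by the largest p-value. The fit was tested on simulated data. Summaries were made in Python 3.11.15 (pandas 2.3.3, numpy 2.4.6) and plots with matplotlib 3.10.9.

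Genes named were the 10 largest changes called in each direction and comparison, genes called above or below both neighbours, members of the gene lists, the most abundant genes, the 10 largest margins over every segment, and the 5 genes most like P2ry14 and Slc26a7. The outer medullary duct markers, lists and genes were chosen with earlier results of these data known, and a few genes that the rule names are not reported here. Alternatives covered the pseudocount, the filter, quantile normalization, detected genes as a covariate, the second table, the replicate block, the libraries fitted, the transcripts kept and leaving out each OMCD library. Leaving out libraries 4 and 7 together was chosen after seeing the data. The tables give RPKM only, so depth is unknown and no counting interval is given.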

Additional observations from a re-analysis of the deposited data

Results flagged for a closer look

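Among 69 named genes, 13 had 1 OMCD library far from the other 6. The measure was the gap to the nearest library relative to the range of the 7, both on the log2(RPKM + 1) scale. Chance gives this in about 1 of 20 groups of normally distributed values, and genes of a library are not independent. Several flagged genes, such as Slc14a2, Gpha2, Akr1b8, Clic4 and Fosb, were near 0 in the other libraries. A small value is then enough for a flag, so the count was not compared with chance. Library 5 was high for Rhcg (1023 RPKM, next 248.4), Clu (17.05, next 0.4204), Tmem52b (3.994, next 0.3711), Clic4 (0.6217, next 0.1152) and Fosb (0.4736, next 0.02045). Library 4 was high for the inner medullary genes Gpha2 (3.416 RPKM, next 0.134), Akr1b8 (2.87, next 0.1509), Fgfbp1 (1.464, next 0.2082) and Slc14a2 (0.4979, next 0.04792), all far under their IMCD levels. Library 3 was low for Csrp2 (11.41 RPKM, next 149.7) and Rab20 (19.69, next 113.8). Library 7 was low for the vasopressin receptor gene Avpr2 (90.29 RPKM, next 431.3), and library 1 for Mcoln3 (0.3476, next 84.55). Libraries 2 and 6 had none.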

How the results depend on the processing

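Of 1778 values of 103 gene results under the alternatives, 1644 kept direction and call, 133 kept direction but lost the call, and 1 reversed: Aqp6 against CCD, at -0.12 in the table without PA-seq. The cause was not tested for any change below. Genes higher than the other 13 segments numbered 257 once values were quantile normalized, 312 once the number of detected genes was a covariate, 69 with the 98 libraries as 1 group and 275 against 10 segments without CNT, CCD and IMCD. Lower genes numbered 122 without libraries under 2500 genes, 2 with 1 group, 117 against 10 segments, 14 without OMCD libraries 4 and 7, and 18 to 50 leaving out 1 OMCD library. Against CCD, higher genes numbered 26 after quantile normalization, 15 with the covariate and 9 to 14 leaving out 1 library; lower genes numbered 21, 42 and 60 to 373 in the same order, 63 with OMCD and CCD fitted alone and 43 without libraries 4 and 7. Against IMCD, higher genes numbered 233 after quantile normalization and 191 with the covariate; lower genes numbered 333, 373, 289 with OMCD and IMCD fitted alone and 428 without libraries 4 and 7. Genes above both neighbours numbered 1 with a pseudocount of 0.1, 8 after quantile normalization and 5 without libraries 4 and 7. Genes below both numbered 2 with a pseudocount of 0.1, in the table without PA-seq and with the replicate block, 1 without libraries 4 and 7, with the covariate and after quantile normalization, and 1 to 5 leaving out 1 library. Genes above each segment numbered 2 after quantile normalization and 1 to 2 leaving out 1 library. They numbered 0 in limma with a pseudocount of 0.1 (5 at an unadjusted p under 0.05) and 0 in limma without libraries under 2500 genes (12 at an unadjusted p under 0.05).

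With the replicate block, 158 genes were higher and 48 lower than in the other 13 segments, 6 and 91 against CCD, and 117 and 736 against IMCD. Same-numbered libraries did not deviate together: the median correlation of residuals was 0.016 with CCD and 0.032 with IMCD, 1 of 7 pairs exceeded 0.1 in each, and 0 of 7 and 1 of 7 OMCD libraries correlated best with their own number. The numbers were therefore not taken as pairing.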
